A study of Mus musculus with 2 samples.

Results

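The postsynaptic scaffolds and kinases described here are 34 genes, chosen by symbol from a list, of 43346 genes measured. They comprise the scaffold families Dlg, Dlgap, Shank and Homer, the calcium/calmodulin-dependent kinases Camk2 and Camk4 with the calmodulin-binding gene Nrgn, the adhesion families Lrrtm and Lrrc4, and 7 regulators of small GTPases and signalling (Kalrn, Baiap2, Cnksr2, Iqsec1, Iqsec2, Anks1b and Sipa1l1). Each symbol stood on exactly 1 Ensembl identifier. RNA came from the central nervous system of mouse embryos (strain C57BL/6J, embryonic day 14), each sample a pool of male and female littermates, with no treatment named in the labels. There were 2 biological replicates of this single group, so there is no contrast between conditions and no p-value, and the labels place both under a shared donor identifier. The libraries kept strand and were read from both ends, and the RNA was poly(A)+ and over 200 nucleotides. Their total depth was 102727538 expected counts for replicate 1 and 138440954 for replicate 2.

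At a mature excitatory synapse, Dlg proteins such as PSD-95, the product of Dlg4, hold glutamate receptors and adhesion proteins under the membrane. Dlgap proteins bind the Dlg proteins and are in turn held by Shank, and Homer links Shank to metabotropic glutamate receptors. The Camk2 kinase assembles from subunits of 4 genes and is switched on by calcium-bound calmodulin. In the rodent brain most excitatory synapses form after birth, and several of these genes are also known from other tissues. The expression of Dlg4 is known to be held back in progenitors by the polypyrimidine tract-binding proteins Ptbp1 and Ptbp2, which repress one exon near the end of the coding sequence.

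That exon of Dlg4, of 110 nt, is shown first because its use decides whether the reading frame is kept. It was exon 18 of 20 in the coding transcript Dlg4-215 of GENCODE M21 (mm10 chr11:70043658-70043767, plus strand). Capitals mark the exon in the first line, between 30 bases of each neighbouring exon, and the new stop codon in the second line, which joins both neighbours without it.
Dlg4 with the 110-nt exon: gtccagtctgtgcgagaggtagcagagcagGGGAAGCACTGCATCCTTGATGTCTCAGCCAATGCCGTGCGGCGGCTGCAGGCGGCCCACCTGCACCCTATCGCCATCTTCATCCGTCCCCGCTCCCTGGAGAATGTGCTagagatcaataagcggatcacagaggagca
Dlg4 without it: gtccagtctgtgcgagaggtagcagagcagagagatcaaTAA
Without the exon the frame met this stop 9 bases past the join, 80 nt before the last exon junction, and held 622 codons in place of 721. A stop that far upstream of the last junction is the textbook trigger of nonsense-mediated decay, the pathway that degrades such transcripts.

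Splice junction reads showed that most Dlg4 RNA kept this exon. The deposited junction table, aligned to mm9, gives reads in 2 library fields that no label ties to the numbered replicates. In field 1, 1067 reads joined the upstream exon to the 110-nt exon, 1181 joined it to the downstream exon and 235 skipped it. In field 2 these were 1542, 1524 and 297 reads. Inclusion, the mean of both inclusion junctions over that mean plus the skipping reads, was 82.7% (exact 95% binomial interval 80.6 to 84.7%) in field 1 and 83.8% (82.0 to 85.4%) in field 2. The intervals of the libraries overlapped, and the skipped form was the minority in both. These intervals cover counting error only. The reads count RNA present in the sample, so they would undercount skipping if the skipped form was degraded, which was not tested. The same limit applies to the other forms with an early stop described below. Another Dlg4 exon, of 66 nt near the 5′ end, was included at 92.5% and 93.7%, and one of 28 nt was skipped by 1 and 0 reads.

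The transcript tables divide Dlg4 by annotated class, which is not the use of this exon alone. Transcripts annotated as protein coding summed to 145 and 147 TPM in replicates 1 and 2, or 79.3% and 84.6% of the gene. Dlg4-205, the only Dlg4 transcript annotated for nonsense-mediated decay, had 23.1 and 17.3 TPM (12.6% and 9.96%), and transcripts with a retained intron took 8.06% and 5.46%. The coding transcript Dlg4-201 (3204 nt, with a coding sequence of 1995 nt) led with 102 TPM in both. The decay and retained-intron transcripts are short partial models (729 and 301 nt for the main ones), and in expected counts, which are not divided by length, coding transcripts took 96.9% of Dlg4. The splicing regulators of this exon were abundant in the same tissue, with Ptbp1 at 208 and 179 TPM and Ptbp2 at 111 and 150 TPM. In bulk tissue it cannot be told whether they and Dlg4 came from the same cells.

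All 34 genes reached 1 TPM in both replicates, where 63.4% of 21474 protein-coding genes did. Their median level was 18.3 ± 0.053 TPM (SD, n = 2), against 21.3 and 21.1 TPM for the protein-coding genes detected in both replicates. The 3 highest genes stood above 100 TPM on average and together held 45.9% and 47.8% of the summed TPM of the 34 genes, which was 1260 in replicate 1 and 1350 in replicate 2. They were Dlgap4 with 232 and 278 TPM, Dlg4 with 183 and 174 TPM, and the adhesion gene Lrrc4b with 161 and 192 TPM. Dlg4 and Lrrc4b overlapped between replicates, so their order is not resolved, while Dlgap4 was above both in each replicate. A further 21 genes lay between 10 and 100 TPM and 10 below 10 TPM, down to Camk4 at 3.01 and 3.03 TPM. The lowest expected count of any member in a library was 550, for Nrgn. In bulk tissue, fewer cells of a type and less RNA per cell cannot be told apart.

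**Figure D1:**
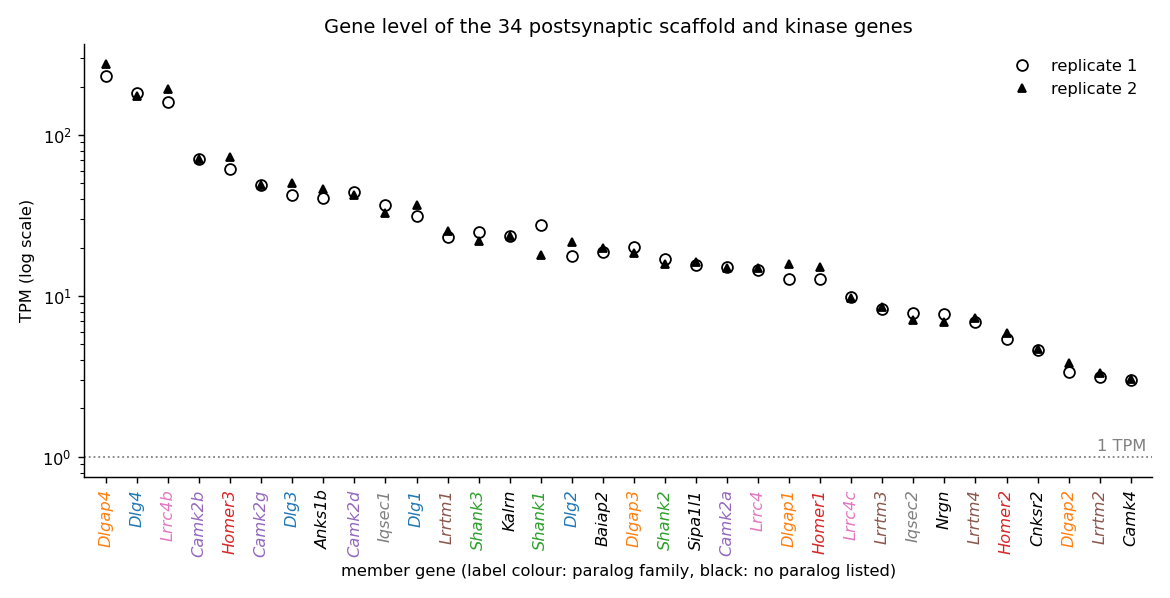
Gene level (TPM, log axis) of each of the 34 genes in replicate 1 (open circles) and replicate 2 (triangles), ordered by the mean. The 3 genes above 100 TPM stand apart from the other 31, and all lie above the dotted line at 1 TPM.

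Among the Dlg scaffolds, Dlg4 was the main transcript. It held 66.7% and 61.4% of the summed TPM of the 4 genes (64.0% ± 3.75, SD, n = 2). Dlg3, which is known as the Dlg protein of young synapses, had 42.2 and 50.6 TPM, Dlg1 31.4 and 37.0 TPM, and Dlg2 17.8 and 21.7 TPM. The order of these 4 genes was the same in both replicates and no neighbours overlapped. Dlg4 held 54.6% of the family in expected counts, and 57.4% in the deposited mm9 RPKM.

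The Dlgap family was more uneven. Dlgap4 took 86.5% and 88.0% of the 4 genes' TPM. Dlgap3 had 20.1 and 18.4 TPM and Dlgap1 12.8 and 15.7 TPM, in the same order in both replicates. Dlgap2 was the lowest at 3.37 and 3.82 TPM.

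No single Shank gene led. Shank1 had 27.6 and 18.1 TPM, Shank3 25.04 and 21.98 TPM, and Shank2 17.1 and 15.7 TPM. Shank1 was the highest in replicate 1 and Shank3 in replicate 2, so Shank3's share of 37.7% ± 2.46 and Shank1's of 36.0% ± 5.11 did not differ beyond their spread. Shank2 was below both in each replicate in TPM. In expected counts, which grow with transcript length, Shank3 held 29.2%, Shank1 was the highest in both replicates, and Shank2 (7164 and 8983) stood above Shank3 (7113 and 8056).

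Homer3 was the main Homer gene with 61.9 and 72.6 TPM, or 77.4% and 77.5% of the family. Homer1 followed with 12.7 and 15.2 TPM and Homer2 with 5.42 and 5.90 TPM, and the ranges of the 3 genes did not overlap in TPM. The share of Homer3 was 51.0% in expected counts, which are not divided by length. The main Homer2 transcript, Homer2-201, is 10999 nt long, and Homer2 had 3705 and 5373 expected counts against 2488 and 4074 for Homer1 and 6262 and 10115 for Homer3, so the order of Homer1 and Homer2 turns in that unit.

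**Figure D2:**
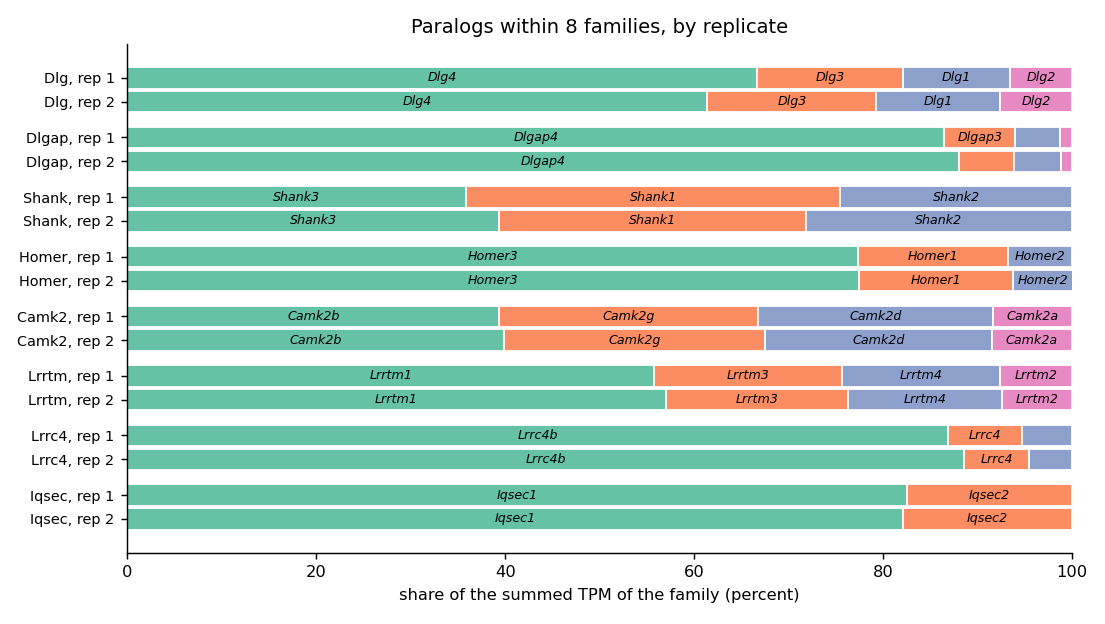
Share of each paralog in the summed TPM of its family (percent), with a bar for each replicate of 8 families. Dlgap4, Lrrc4b, Iqsec1 and Homer3 each hold over 75% of their family in both replicates, while the Shank bars are split between 3 genes.

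Of the Camk2 subunits, the beta gene was the highest and the alpha gene, the main subunit of the adult forebrain, the lowest. Camk2b had 70.5 and 70.6 TPM, Camk2g 49.1 and 48.7 TPM, Camk2d 44.4 and 42.5 TPM, and Camk2a 15.07 and 14.98 TPM. Camk2a thus held 8.41% and 8.48% of the family, and Camk2b 39.4% and 39.9%. The order was the same in both replicates, with no overlap between neighbours. Camk4, a kinase of the nucleus known to act on the transcription factor Creb1, and Nrgn, which binds calmodulin at low calcium in mature forebrain neurons, were low, with 7.69 and 6.88 TPM for Nrgn.

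The adhesion genes ranged widely. Lrrtm proteins bind presynaptic neurexins, and Lrrtm1 led them with 23.2 and 25.4 TPM, above Lrrtm3 (8.27 and 8.59), Lrrtm4 (6.92 and 7.27) and Lrrtm2 (3.15 and 3.32 TPM). In expected counts Lrrtm2 (1091 and 1531) stood above Lrrtm4 (1074 and 1442), and in replicate 2 also above Lrrtm3 (1301 and 1482). Lrrc4b, a ligand of presynaptic receptor tyrosine phosphatases, held 86.9% and 88.6% of its family. Lrrc4 and Lrrc4c, which bind netrin-G proteins on axons, had 14.5 and 14.98 TPM, and 9.89 and 9.70 TPM.

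Among the regulators, Anks1b, whose product binds PSD-95, was the highest at 40.7 and 46.3 TPM. Iqsec1, an exchange factor for Arf GTPases, had 36.6 and 32.8 TPM and its paralog Iqsec2, an X-linked gene, 7.79 and 7.14 TPM. Kalrn, an exchange factor for small GTPases in spines, had 23.5 and 23.4 TPM, and Baiap2, which bends membranes at actin-rich protrusions, 19.4 ± 0.841 TPM (SD, n = 2). Sipa1l1, an inhibitor of Rap GTPases, had 15.5 and 16.2 TPM, and the scaffold gene Cnksr2, also X-linked, 4.63 and 4.68 TPM.

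The genes are long: 19 of 34 span over 100 kb, as do 15.5% of the protein-coding genes detected in both replicates. The median span was 129 kb for the members and 24.9 kb for those genes. Dlg2 (mm10 chr7:90476672-92449247) spans 1970 kb and Lrrc4c (chr2:96318169-97631666) 1310 kb, while Nrgn spans 8.41 kb. Across the 34 genes, mean TPM on mm10 and mean RPKM on mm9 gave nearly the same order (Spearman correlation 0.959 across genes, which are not independent and come from the same libraries). With a threshold of 1 RPKM in both mm9 fields 26 of the 34 genes passed, and with 0.5 RPKM 32.

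The replicates gave similar levels for these genes. The log2 ratio of replicate 2 over replicate 1, from expected counts scaled by TMM, had a median of 0.02 over the members, with 21 above 0 and 13 below. Over all 14340 genes with a mean of at least 200 counts the median was also 0.02, and 54.5% lay above 0. None of the 34 genes was 2-fold apart, where 3.95% of those 14340 genes were at least 2-fold lower in replicate 2 and 0.286% at least 2-fold higher. None was 1.5-fold apart either, against 8.27% lower and 1.38% higher. The median absolute log2 ratio was 0.11 over the members and 0.15 over all these genes.

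**Figure D3:**
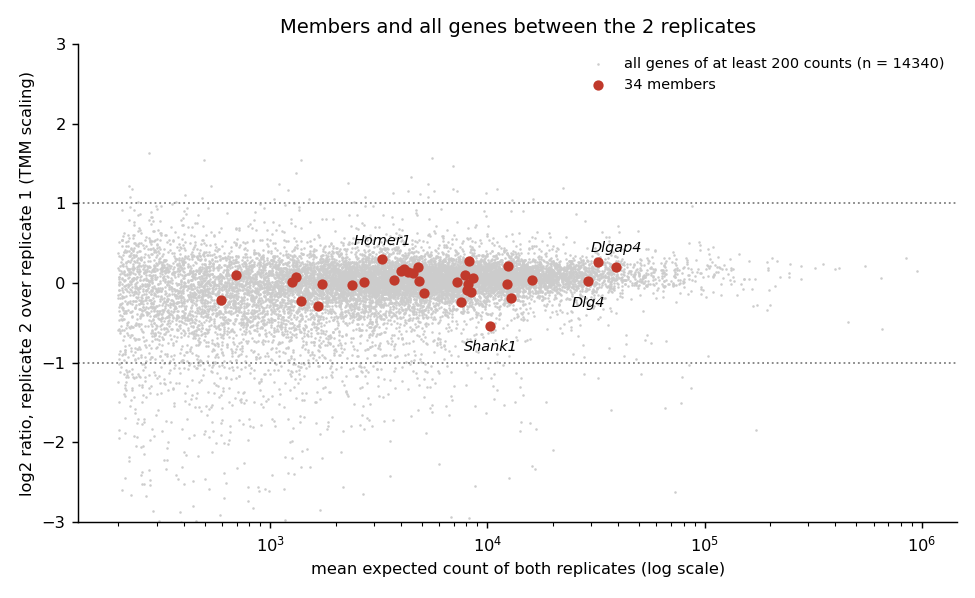
Log2 ratio of replicate 2 over replicate 1 against the mean expected count (log axis) for the 34 genes (red) and all genes of at least 200 counts (grey). All 34 genes lie between the dotted lines at 2-fold, with Shank1 the lowest at -0.54. A further 82 genes lie beyond the axis.

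Shank1 differed most, with a log2 ratio of -0.54 (10779 and 9881 expected counts in libraries of unequal depth), followed by Homer1 at 0.30 and Iqsec2 at -0.28. The difference of Shank1 was larger in TPM, at 27.6 and 18.1, which also depends on the transcripts assigned. In the mm9 RPKM Shank1 had 2.02 in field 1 and 3.36 in field 2, and no label says which field is which replicate. Nor does a label tie the RPKM fields to the fields of the junction reads. Only the size of this difference, not its direction, can therefore be set beside the replicates. Shank2 and Shank3 had ratios of -0.09 and -0.23. Several marker lists moved between these libraries. Each of the 8 genes listed for skeletal muscle was lower in replicate 2 by 2-fold or more, with summed levels of 592 and 11.4 TPM in replicates 1 and 2, as were 5 of 5 for cartilage (716 and 87.6 TPM), 5 of 5 for skin (130 and 17.0 TPM) and 4 of 5 for peripheral ganglia and Schwann cells (168 and 83.2 TPM). Red blood cell genes summed to 10500 and 5150 TPM (1 of 5 at 2-fold). Telencephalon genes were higher in replicate 2 (479 and 924 TPM, 4 of 8 at least 2-fold). No gene of these lists was listed at 0. The part of these tissues in the ratio of Shank1 was not tested.

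The labelled tissue was checked with marker genes. Neuronal genes had 8 of 8 detected in both replicates and a summed 3210 and 3640 TPM, and radial glia and progenitor genes 8 of 8 and 2180 and 2500 TPM. Hindbrain and cord genes were all detected (6 of 6, 98.9 and 125 TPM). Of glial markers, 2 of 4 astrocyte genes (112 and 132 TPM) and 3 of 4 oligodendrocyte genes (31.1 and 26.8 TPM) reached 1 TPM, with the astrocyte filament gene Gfap at 0.560 and 0.330 TPM.

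The share of TPM in coding transcripts varied widely between members. Over all 34 genes the median was 86.2% in replicate 1 and 85.8% in replicate 2. Neither this median nor the counts that follow are set beside a share over all genes, so they describe the members only. In 15 genes over 90% was coding in both replicates, among them all 3 Lrrc4 genes, Homer1, Homer2, Camk2a, Camk2g, Dlgap3 and Sipa1l1. Some of these shares were fixed by the annotation. All 11 Homer1 models are coding, and Lrrtm2 and Camk4 have 1 transcript each, so no other value was possible. In 5 genes less than 50% was coding: Dlg3 (34.6% and 30.4%), Dlgap2 (34.7% and 35.9%), Lrrtm3 (42.8% and 31.9%), Dlg2 (46.7% and 43.0%) and Iqsec2 (49.9% and 42.8%). This holds per transcript length: in expected counts the coding share was 41.8% for Dlg3 but 57.4% for Dlgap2, 60.6% for Lrrtm3, 68% for Dlg2 and 87.1% for Iqsec2, so that only Dlg3 stayed below 50%. For Dlg3 this rested on 1 model, Dlg3-208 (3316 nt, annotated as a processed transcript), with 26.6 and 33.5 TPM, or 62.9% and 66.2% of the gene, above the coding Dlg3-201 at 7.65 and 9.09 TPM. For Dlg2 it rested on Dlg2-207 (817 nt) and Dlg2-208 (3218 nt), at 4.53 and 6.58 TPM, and 3.73 and 3.72 TPM.

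**Figure D4:**
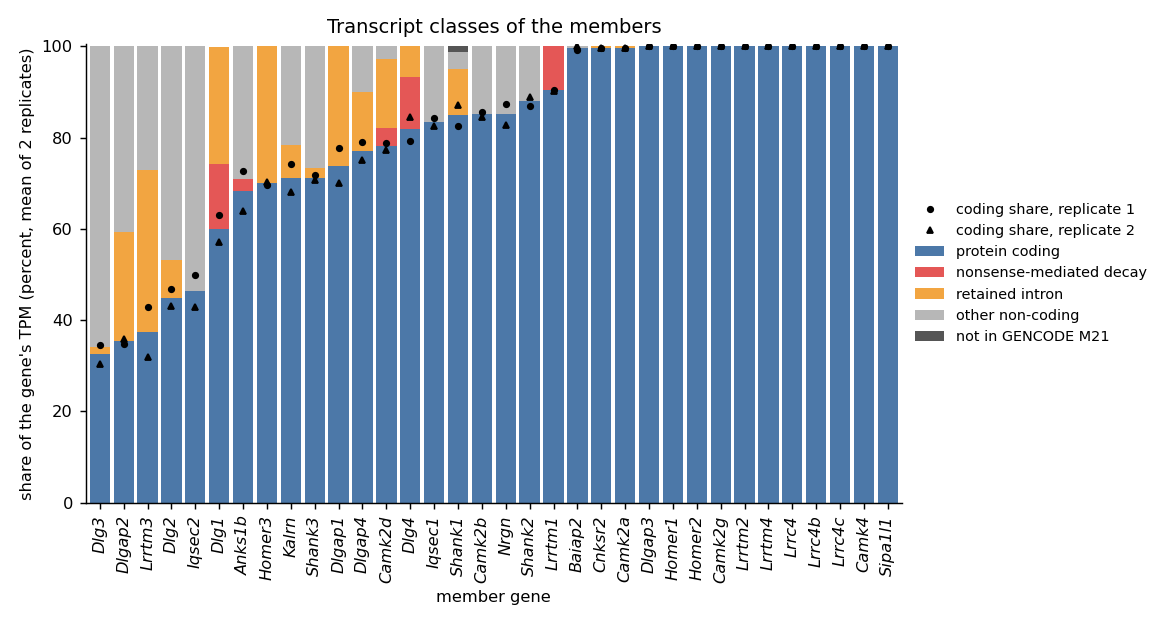
Share of each gene's TPM in transcripts of each annotated class (percent, stacked, mean of both replicates), with the coding share of each replicate as a circle and a triangle. Decay transcripts (red) show in Dlg1, Dlg4, Lrrtm1, Camk2d and Anks1b, and the 5 genes on the left have under 50% of TPM in coding transcripts, of which only Dlg3 is also under 50% in expected counts.

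Decay transcripts were annotated for 5 members, a count with no share over all genes beside it. Beside Dlg4 these were Dlg1 (14.2% and 13.9% of its TPM), Lrrtm1 (9.45% and 9.67%), Camk2d (4.39% and 3.79%) and Anks1b (2.41% and 2.92%). Retained-intron transcripts took 22.5% and 29.0% of Dlg1, 30.3% and 29.8% of Homer3, and 37.6% and 33.4% of Lrrtm3. Many of these non-coding models are short, such as Dlg1-214 (567 nt, 12.5% and 18.01% of Dlg1) and Homer3-208 (678 nt, 19.3% and 18.9% of Homer3), and overlap coding transcripts, so the split between them is an estimate. Of 80 transcripts that held at least 10% of their gene in both replicates, 76 had introns in the mm9 annotation, and 69 of these had reads on every intron, with unannotated junctions shifted by up to 10 bases counted. For this, 1 read on an intron was enough. Dlg1-206 (21.7% and 28.1% of Dlg1) passed with 1 read on its lowest intron against a median of 442. Camk2b-215 passed with 3 against a median of 891. A junction that several transcripts share does not tell which of them it came from. Lrrtm3-202, a processed transcript at 1.35 and 2.64 TPM, had no read on its only intron.

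Homer1 has long forms, whose coiled coil joins Homer proteins into clusters, and short forms that lack it, of which Homer1a is known to be induced by activity. Short transcripts, with coding sequences of 543 to 702 nt against 1065 to 1113 nt for long ones, took 37.3% and 37.9% of Homer1 TPM. The long Homer1-202 was the highest at 4.76 and 6.17 TPM, followed by the long Homer1-203 at 3.18 and 3.29 TPM. Homer1-204, the 5-exon form of Homer1a type, had 1.43 and 1.98 TPM (11.3% and 13.0%). Junction reads bear on this 5-exon form alone, since the 6-exon short transcripts Homer1-206 and Homer1-207 leave the fifth exon. In fields 1 and 2, 120 and 241 reads entered the fifth exon and 117 and 140 left it, a shortfall of 2.5% and 41.9%, or 28.8% over both, so the fields did not give a steady value. The short Homer1-206, at 1.44 and 2.10 TPM, had no read on its last junction. The long Homer1-202 lacked reads on 1 of its 8 introns, so the models do not match the junctions exactly.

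Across the members, 90 annotated exons in 25 genes had reads for both inclusion junctions and for skipping, with at least 50 reads in each field. Of these, 26 exons in 17 genes were included at between 10 and 90% in both fields, 13 of them at or above 50% and 13 below. Inclusion here sets an exon only against its own skipping, so the 100-nt exon of Dlg3 and the 80-nt exon of Dlgap4 count among the first 13 although another exon between the same neighbours took more reads. The length was a multiple of 3 for 17 exons and was not for 9. No such counts over the exons of all genes are given beside these, so they describe the members only. Inclusion differed between fields by a median of 4.36 percentage points, and the intervals of the fields overlapped for 25 of the 26. The exception was the 69-nt exon of Camk2g, at 31.2% (25.7 to 37.1%) in field 1 and 15.2% (11.4 to 19.4%) in field 2.

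**Figure D5:**
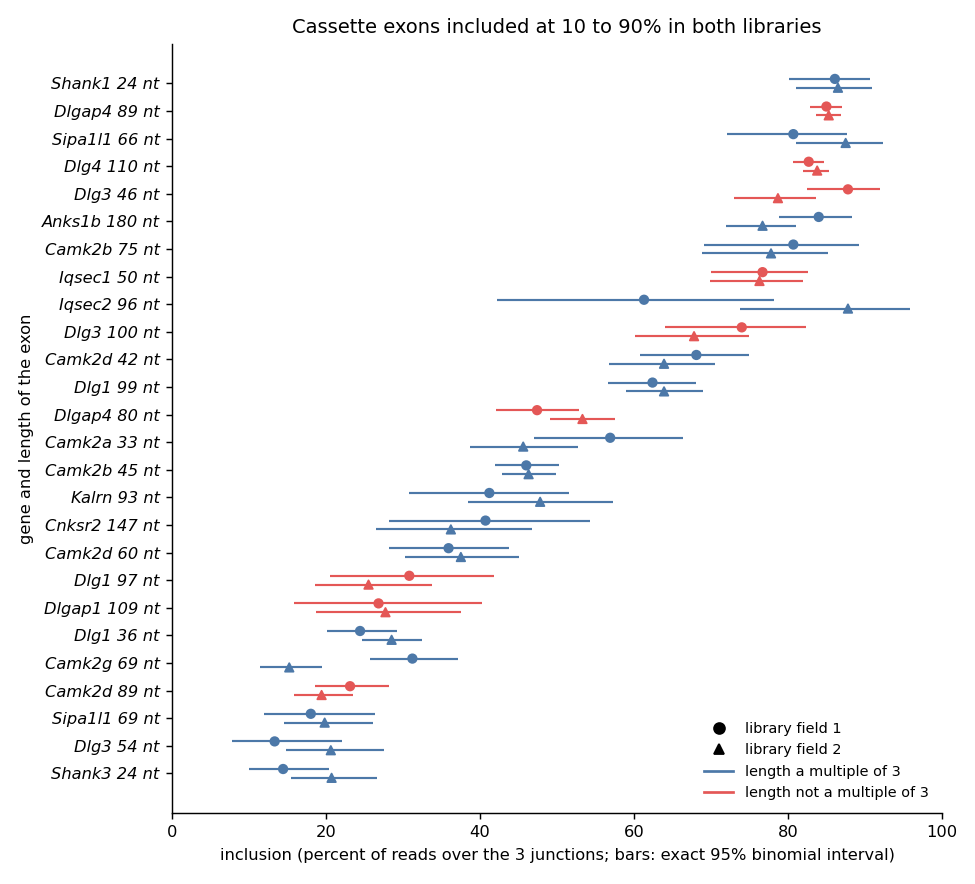
Inclusion (percent) of 26 cassette exons in library field 1 (circles) and field 2 (triangles), with exact 95% binomial intervals, in blue where the length is a multiple of 3 and in red where it is not. The 110-nt exon of Dlg4 is among the most included, and the 24-nt exons of Shank1 and Shank3 stand at opposite ends.

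The Shank genes differed in a microexon, a very short exon of 24 nt found in both. The 24-nt exon of Shank1 (mm10 chr7:44344298-44344321) was included at 86.1% (80.2 to 90.7%) and 86.5% (81.1 to 90.9%) in fields 1 and 2. That of Shank3 (chr15:89538015-89538038) was included at 14.4% (9.91 to 20.4%) and 20.7% (15.4 to 26.6%). The ranges were far apart in both libraries. The exons, in capitals between 30 bases of each neighbour, are shown to compare their sequence.
Shank1 24-nt exon: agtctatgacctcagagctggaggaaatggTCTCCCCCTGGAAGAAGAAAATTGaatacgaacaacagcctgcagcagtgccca
Shank3 24-nt exon: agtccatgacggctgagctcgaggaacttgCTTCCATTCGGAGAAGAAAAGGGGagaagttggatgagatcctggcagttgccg
Of the 24 bases, 11 were identical at the same position, and of the 30 bases before them 23 were.

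Camk2 genes differed in the variable linker, the stretch between the kinase domain and the part through which subunits assemble. The 45-nt exon of Camk2b (mm10 chr11:5981070-5981114, minus strand) was included at 46% (41.9 to 50.2%) and 46.3% (42.9 to 49.9%). The related 42-nt exon of Camk2d (chr3:126808208-126808249, plus strand) was included at 68.1% (60.8 to 74.9%) and 63.9% (56.8 to 70.5%), above that of Camk2b in both fields. Capitals mark each exon between 30 bases of its neighbours.
Camk2b 45-nt exon: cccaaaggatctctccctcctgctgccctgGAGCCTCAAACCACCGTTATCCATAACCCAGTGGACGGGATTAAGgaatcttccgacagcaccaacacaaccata
Camk2d 42-nt exon: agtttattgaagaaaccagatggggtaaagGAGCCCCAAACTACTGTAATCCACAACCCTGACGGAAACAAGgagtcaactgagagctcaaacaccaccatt
Over the first 30 bases of both exons, 24 were identical. A second Camk2b exon, of 75 nt, was included at 80.7% and 77.8%, but on few reads. In fields 1 and 2, 77 and 125 reads entered it, 32 and 43 left it and 13 and 24 skipped it. The introns of Camk2b-209, which carries it, had a median of 839 reads over both fields. Its inclusion therefore describes only the reads of these 3 junctions, not all Camk2b RNA. In Camk2d, reads leaving the upstream exon went to a 60-nt exon in 26.2% and 27.7%, straight to the 42-nt exon in 47.2% and 43.5%, and past both in 26.6% and 28.9%. The 60-nt exon was in turn joined to the 42-nt exon by 57 and 62 reads, so RNA of that path also carries the 42-nt exon. The inclusion given above for the 42-nt exon leaves out this way of entering it.

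In Dlg3 and Dlgap4, 2 exons stand between the same neighbours, and in each gene leaving out both shifts the frame. The 46-nt exon of Dlg3 (mm10 chrX:100809862-100809907) took 71.1% and 61.0% of the reads leaving the upstream exon and the 100-nt exon (chrX:100808053-100808152) 21.3% and 26.9%. The remaining 7.60% and 12.1% went to neither, a form whose frame ended 561 nt before the last junction. Fewer reads left the 46-nt exon for the downstream exon (127 and 122) than entered it (234 and 263). For the 100-nt exon, 70 and 116 reads entered and 72 and 103 left. The lead of the 46-nt exon was thus smaller on the downstream side, and small there in field 2. Capitals mark the exons of Dlg3.
Dlg3 46-nt exon: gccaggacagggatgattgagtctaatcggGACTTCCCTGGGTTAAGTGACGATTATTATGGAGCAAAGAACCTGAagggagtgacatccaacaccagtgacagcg
Dlg3 100-nt exon: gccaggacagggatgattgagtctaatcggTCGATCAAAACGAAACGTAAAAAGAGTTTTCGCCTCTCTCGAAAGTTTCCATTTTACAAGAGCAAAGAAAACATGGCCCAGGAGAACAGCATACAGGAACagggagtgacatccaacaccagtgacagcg
In Dlgap4 the 89-nt exon took 63.5% and 53.9%, the 80-nt exon 17.5% and 25.5%, and neither 19.0% and 20.7%, with a stop 616 nt before the last junction in that form. More reads left the 89-nt exon of Dlgap4 (1473 and 2337) than entered it from this upstream exon (615 and 678). These shares therefore describe only reads leaving that upstream exon, not all RNA with the 89-nt exon.

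Several other exons were used in part. The 99-nt exon of Dlg1 was included at 62.4% and 63.9%, its 36-nt exon at 24.4% and 28.5%, and its 97-nt exon, whose length is not a multiple of 3, at 30.8% and 25.5%. A 50-nt exon of Iqsec1 that shifts the frame was included at 76.7% and 76.3%; without it the frame ended 14 nt past the last junction, so this form has no early stop of the decay type. The 180-nt exon of Anks1b was included at 84.0% and 76.7%, the 93-nt exon of Kalrn at 41.2% and 47.8%, and the 147-nt exon of Cnksr2 at 40.7% and 36.2%. Sipa1l1 had exons of 66 nt (80.7% and 87.5%) and 69 nt (18% and 19.8%). The remaining ones were a 109-nt exon of Dlgap1 (26.8% and 27.7%), a 54-nt exon of Dlg3 (13.3% and 20.6%), an 89-nt exon of Camk2d (23.1% and 19.4%) and a 96-nt exon of Iqsec2, which had few reads (61.3% and 87.8%). In Homer1, a 36-nt exon had no read on its annotated exit, but with reads of an unannotated junction nearby it was included at 60.3% and 55.8%.

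The adult alpha subunit gene Camk2a also carries a linker exon, of 33 nt, which adds a nuclear localisation signal in its alpha-B form. It was included at 56.9% (47.0 to 66.3%) in field 1 and 45.6% (38.7 to 52.7%) in field 2. The intervals of the fields overlapped. The transcript tables differ from these junction reads: Camk2a-201, which carries it, held 10.1% and 13.6% of the gene's TPM, and Camk2a-203, whose coding sequence is shorter (1437 nt against 1470 nt), 82.0% and 82.8%. The cause of the difference was not tested.

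Other genes of the same compartment gave a frame for these levels. Of 47 other excitatory postsynaptic genes, 46 reached 1 TPM in both replicates, at a median of 26.3 ± 0.969 TPM (SD, n = 2). They were led by the actin-binding genes Dbn1 (602 and 692 TPM) and Cttn (172.5 and 195 TPM), Nsmf, a messenger from synapse to nucleus (162 and 185 TPM), and Pick1, a receptor-trafficking gene (100.7 and 102 TPM), and Frmpd4 was the lowest at 0.740 and 0.640 TPM. One of the 47 was at least 2-fold lower in replicate 2, Synpo at 16.7 and 4.52 TPM, named after its value was seen. All 21 other genes of calcium and calmodulin signalling reached 1 TPM in both (median 53.5 ± 3.05 TPM), led by Calm2 (969 and 1070 TPM), Gap43 (762 and 671 TPM) and Calm3 (468 and 458 TPM).

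So did all 7 inhibitory postsynaptic genes (median 27.8 ± 0.276 TPM). The adhesion gene Nlgn2 had 113 and 106 TPM, Lhfpl4, a partner of GABA receptors, 48.6 and 44.8 TPM, Insyn1 27.5 and 28.0 TPM, and Slitrk3 9.64 and 8.39 TPM. The 10 genes listed for splicing of postsynaptic exons and for decay lay at a median of 41.9 ± 0.767 TPM, with none below 1 TPM. After Ptbp1 the highest were Rbfox2 (181 and 186 TPM), Ptbp2 and Rbfox1 (63.8 and 67.5 TPM), and Upf1, a core factor of nonsense-mediated decay, was the lowest by mean at 24.7 and 22.2 TPM, with Smg1, another decay factor, overlapping it at 23.25 and 24.2 TPM. No gene of the last 3 lists was 2-fold apart between replicates.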

How the data were processed

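The members and gene lists were chosen with earlier results of these data known. Per its deposited description, the mm10 quantification used GENCODE M4: the authors deposited expected counts, TPM and FPKM for genes and transcripts, and each transcript's percent of its gene. Which aligner and quantifier were used is not stated in the labels or files used here. For mm9 they deposited RPKM per Ensembl 65 gene and read counts per splice junction, each in 2 fields. Symbols, transcript classes and sequences came from GENCODE M21 by stable identifier (42462 of 43346 genes; 2 transcripts of members were not matched). Expected counts were rounded, scaled by TMM (edgeR 4.0.16, R 4.3.3; DESeq2 1.42.0 as an alternative) and given a prior count of 1. The ratios and inclusion were tested on simulated data. Python 3.11.15, pandas 2.3.3, numpy 2.4.6, scipy 1.17.1 and matplotlib 3.10.9 were used.

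A cassette exon needed both inclusion junctions, skipping reads, at least 50 reads in each field and inclusion junctions within 3-fold of each other, a limit set after seeing the data; of overlapping exons the one with the most reads was kept. Exons were matched to mm10 by their length and those of both introns (26 of 26). A count of 0 allows 3 counts, or 0.0301 and 0.0223 CPM; intervals and floors cover counting error only. Named were all members, the 4 highest and the lowest of each other list, transcripts of at least 10% in both replicates (80, given in part), and exons at 10 to 90%. A few genes that this rule names are not reported here.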

Additional observations from a re-analysis of the deposited data

How the results depend on the processing

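No paired analysis was possible because there is only 1 group. All 34 genes passed at 0.5 and 2 TPM, at 1 FPKM and in either replicate alone (34 to 34), while 26 passed 1 RPKM and 32 passed 0.5 RPKM on mm9, the second limit added after seeing the data. The median level was 18.2 to 18.3 TPM in single replicates, 11.2 FPKM, and 2.29 RPKM on mm9, where the unit itself differs. The median log2 ratio was 0.000953 to 0.0658 under 6 alternatives, against 0.024, and no gene was 2-fold apart under any.

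In expected counts, which are not divided by length, the paralog with the highest mean TPM held 54.6% (Dlg4), 78.5% (Dlgap4), 29.2% (Shank3), 51.0% (Homer3), 38.3% (Camk2b), 51.8% (Lrrtm1), 83.8% (Lrrc4b) and 88.5% (Iqsec1) of its family, a move beyond the replicate SD in each; Shank3 was then the lowest of its family. In mm9 RPKM the shares that moved by that much were 57.4% (Dlg4), 85.6% (Dlgap4), 73.5% (Homer3), 39.0% (Camk2b), 54.4% (Lrrtm1), 82.6% (Lrrc4b) and 81.6% (Iqsec1). Single replicates gave 61.4 to 66.7%, 86.5 to 88.0%, 35.9 to 39.4%, 77.4 to 77.5%, 39.4 to 39.9%, 55.8 to 57.0%, 86.9 to 88.6% and 82.1 to 82.5%, in the first order.

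Coding transcripts of Dlg4 took 79.3 to 84.6% in single replicates and 96.9% in expected counts. Short Homer1 transcripts took 37.3 to 37.9% in single replicates. The 28.8% from junction reads over both fields counts only RNA ending in the fifth exon, a narrower quantity. Inclusion of the Dlg4 exon moved by less than the spread of the fields with the upstream or downstream junction alone (83.1% and 83.6%). Exons at 10 to 90% numbered 31 with at least 20 reads, and, in alternatives added after seeing the data, 30 without the limit on the junction ratio and 27 with shifted junctions. Of the values of other single exons and genes, 158 moved by less than the spread and 41 by more. None was counted as reversed, but the coding shares of Dlg2, Dlgap2, Lrrtm3 and Iqsec2 rose from under 50% to above it in expected counts. The 158 include every value from a single replicate or field. A single replicate always lies closer to the mean of both than their SD, so those values could not move by more. The 158 are therefore no measure of stability. All 41 came from expected counts or from the upstream or downstream junction alone. Of the 41, 23 were exons, by up to 11.9 percentage points (the 75-nt exon of Camk2b from its downstream junction). The other 18 were coding shares, by up to 40.7 points (Iqsec2 in expected counts).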
